A study of Rattus norvegicus with 24 samples.

Results

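The genes described here encode the proteins of the cytosolic ribosome. They were taken from 24 oligonucleotide arrays of rat brain by gene symbol: a probe set counted when its single symbol was Rpl or Rps followed by a number, or a stalk or Rpsa symbol, and each gene was read by its brightest probe set. This gave 45 genes of 14217 with a single symbol on the array: 29 of the large subunit, 15 of the small subunit and the stalk protein gene Rplp0. Of these, 41 passed the filter on dim probe sets, which kept the brighter 50% of probe sets (15521 of 31042) by mean log2 signal over all arrays. The 4 that did not pass were Rpl28, Rpl30, Rpl3l and Rps4y2, with mean signals of 41.7, 83.0, 30.2 and 32.9. A further 27 ribosomal protein genes are named only on probe sets that carry several symbols, among them Rplp1, Rpl10, Rpl36a and Rps4x, and have no value here.

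The study set a genetic against an environmental model of attention deficit hyperactivity disorder. The arrays cover 6 brain regions in each of 4 groups of male rats aged 55 to 65 days. The groups are the spontaneously hypertensive rat (SHR, 8 rats), the Wistar-Kyoto rat (WKY, 8 rats), from which SHR was bred, the Sprague-Dawley rat (SD, 8 rats), and Sprague-Dawley rats exposed to polychlorinated biphenyls (SDpcb, 4 rats). The dose, route and timing of the exposure are not given in the sources used here. The regions are dorsal striatum (DS), ventral striatum (VS), prefrontal cortex (PFC), hippocampus (Hipp), substantia nigra with ventral tegmental area (SN/VTA) and cerebellar vermis, with 1 array for each region and group. How many rats went onto an array is not stated. The 6 arrays of a group come from 1 group of 8 or 4 rats, and whether the same rats gave every region is not stated. No region was repeated within a group, so the tests below measure agreement between regions. Their p-values should not be read as statements about strains or about exposure.

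A ribosome is built from ribosomal RNA and a single copy of nearly every one of its proteins, so cells need these proteins in matched amounts. Their messenger RNAs are among the most abundant in any cell, and most of them begin with a run of pyrimidines, the terminal oligopyrimidine or TOP motif, through which the mTORC1 kinase controls their translation. In neurons, ribosomal protein messenger RNAs are found in the cell body and also in dendrites and axons. On these arrays 36 of the 45 genes lay among the brightest 5% of probe sets and 19 among the brightest 1%. The brightest 5 by mean signal were Rps23 (16795), Rpl27a (16521), Rpl26 (15646), Rps29 (15530) and Rpl35a (11845). Signals of different probe sets depend on their probes, so this order is not an order of transcript amounts.

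The start of the transcript is printed for 9 genes that the results turn on, since the TOP motif is the sequence feature this family is known for. RefSeq promoters on the GRCr8 build matched 40 of the 45 genes by symbol. Each line runs from 10 bases before to 20 bases from the annotated start, on the transcript's strand. Capitals mark a C followed by at least 4 letters that are each C or T, where this run begins no later than 5 bases after the first transcribed base and reaches at least the base before it.
Rpl6: ttacatcactagatggcgggtgaaaaggcg
Rpl11: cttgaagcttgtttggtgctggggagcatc
Rpl34: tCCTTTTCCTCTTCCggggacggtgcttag
Rpl35a: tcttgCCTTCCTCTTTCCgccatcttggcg
Rpl39: taatcgcgttCTTCCggcctgtcctttctc
Rplp0: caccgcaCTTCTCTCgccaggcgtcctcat
Rps13: ttcctacctcgttCTCTCTTTgcttccaga
Rps15: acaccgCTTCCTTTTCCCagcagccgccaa
Rps23: ccttcctgCCTCTCTTCTCTCTTTCTCTCg
These windows lie at chr12:41011671-41011700 on the minus strand for Rpl6, chr5:153560783-153560812 on the minus strand for Rpl11, and chr2:221962264-221962293 on the minus strand for Rpl34. Rpl35a lies at chr11:81235002-81235031 (minus), Rpl39 at chrX:121195877-121195906 (minus) and Rplp0 at chr12:46718371-46718400 (minus). Rps13 lies at chr1:180009641-180009670 (minus), Rps15 at chr7:10068096-10068125 (minus) and Rps23 at chr2:23814507-23814536 (plus). The pyrimidine run stood at the annotated start in 23 of 40 members (57.5%) and in 17.3% of the promoters of 18999 protein-coding genes. The longest run in a member window was in Rps23, at 21 letters, and the run in Rpl39 was 5 letters long. Rpl6 and Rpl11 held no such run in this window, which says only that these letters are not there. Among tested members with a window, the median SDpcb minus SD difference was −0.43 in the 21 with a run and −0.24 in the 16 without one. In SHR minus WKY the medians were 0.11 and 0.20. In the vermis minus the mean of the other 5 regions they were 0.165 and 0.166. Members with and without a run were not tested against each other.

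The deposited values are MAS5 signals, a linear brightness per probe set, and were compared here as log2(signal + 1). The median signal of an array was 131 to 184 in SD, 89.0 to 126 in SDpcb, 132 to 178 in SHR and 109 to 153 in WKY, so the dim end of the scale lay lowest in SDpcb. Centring each array on its own median moved the median log2 difference of all tested probe sets to 0.71 in SDpcb minus SD and −0.30 in SHR minus WKY. In the comparisons with SD it became 0.14 (SHR) and 0.47 (WKY), and in the contrast of both models −0.98. For regions it became −0.33 for the vermis, 0.20 for SN/VTA and 0.14 for PFC. Gapdh is read near both ends of its transcript, and the log2 excess of its 3′ over its 5′ probe set, a sign of RNA length on the array, was 1.96 to 2.18 in SD, 0.82 to 1.44 in SDpcb, 1.28 to 2.03 in SHR and 1.71 to 2.16 in WKY. As a check of the labelled tissue, 7 of 7 tested granule and Purkinje cell genes were higher in the vermis, with a median log2 difference of 5.12.

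The median of the 41 members on each array was lowest on SDpcb arrays in 5 regions and highest on the SDpcb array in the vermis. In SD it ran from 12.84 to 13.14 on the log2 scale, with a median of 12.90. In SDpcb it was 12.68 in DS, 12.55 in VS, 12.51 in PFC, 12.40 in Hipp, 12.56 in SN/VTA and 13.06 in the vermis. In SHR it ran from 12.76 to 13.04 and in WKY from 12.56 to 12.86. Measured from the array median the order turned: SDpcb arrays lay at 5.82 to 6.13 and SD arrays at 5.42 to 5.81. The SDpcb array was then the highest in 5 regions, and in Hipp the WKY array was, at 5.91.

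SDpcb was compared with SD to ask what differs after exposure. On the deposited scale 26 of 41 members were lower in SDpcb and 0 were higher (limma, Benjamini-Hochberg adjusted p under 0.05), where 16.9% of all tested probe sets were lower and 14.7% higher. The median member difference was −0.39 (log2) against −0.01 for all tested probe sets and 0.10 for the brighter 7761 of them. Quantile normalization called 19 lower (10.6% of all tested probe sets) and cyclic loess 27 lower (13.3%), and neither called a member higher. With each array centred on its median the count became 26 higher and 1 lower, where 70.8% of all tested probe sets were higher and 3.45% lower. The member median was then 0.33 against 0.71 for all tested probe sets. This centring moves every probe set alike, so the gap between members and all probe sets stays the same by construction. Of the 27 large-subunit and stalk members 19 were lower, and of the 14 small-subunit members 7 were lower.

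Rpl6, a protein of the large subunit, showed the clearest difference. Its signal was 2043 at the lowest, 2830 at the median and 3016 at the highest over the 6 SDpcb arrays, and 4828, 5500 and 6124 over the 6 SD arrays. No SDpcb array reached any SD, SHR or WKY array, the lowest of which was 4761 in WKY. Rpl6 was 1.02 lower on the log2 scale in SDpcb, as −1.02 ± 0.09 (SE, n = 6 arrays a group), lower in 6 of 6 regions (limma, adjusted p = 4.14e-08). It was the only member whose 6 SDpcb arrays lay below all 6 SD arrays, where 2.44% of all tested probe sets did so and 1.97% did the opposite. It was also the only member called lower under quantile, cyclic loess, array-median and family-median centring as well, with −0.29 after array-median centring.

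The other members called with a lower signal in all 6 regions on the deposited scale belong to both subunits. Rpl35a, which takes part in maturation of the large subunit, had signals of 7566, 9002 and 16433 (lowest, median and highest) in SDpcb and of 12403, 15420 and 21511 in SD. The highest of both ranges is the vermis, so the groups overlap only through that region. Its difference was −0.71 ± 0.09 (limma, adjusted p = 4.45e-06), and it was 0.018 after array-median centring. Rpl27a differed by −0.68 ± 0.10 and Rpl23a, a protein at the exit of the nascent chain tunnel, by −0.65 ± 0.09. Rps15, needed for export of the small subunit from the nucleus, had signals of 1675, 2316 and 2657 in SDpcb and of 2236, 3522 and 3833 in SD, with a difference of −0.55 ± 0.10. Only the SD vermis array lay inside the SDpcb range. Rps13, a dim small-subunit member, had signals of 147, 287 and 447 in SDpcb and of 270, 385 and 690 in SD, with overlapping groups and a difference of −0.52 ± 0.18 (limma, adjusted p = 0.0308). Rpl7a differed by −0.43 ± 0.08 and Rpl12 by −0.30 ± 0.09. After array-median centring Rpl27a, Rpl23a, Rps15, Rps13, Rpl7a and Rpl12 had differences above 0, from 0.046 for Rpl27a to 0.42 for Rpl12.

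The remaining 18 members called lower were lower in 5 of 6 regions and higher in the vermis, and ran from Rpl26 at −0.61 to Rpl22 at −0.29. Members that did not pass the test included Rps6, the substrate of S6 kinase, at −0.18 ± 0.09, and Rpsa, also known as the laminin receptor precursor, at −0.09 ± 0.11. Rpl39, a small protein of the exit tunnel and the only X-linked member, stood at 0.29 ± 0.17 and Rpl14 at 0.13 ± 0.11. With the Gapdh ratio as a covariate limma called 1 member lower and 0.747% of all tested probe sets lower. The member median was then −0.27, with 33 of 41 members below 0. With the array median as a covariate it called 0 of 15521 probe sets, members included, and at an unadjusted p under 0.05 there were 3 members higher and 1 lower. Neither the Gapdh ratio nor the array median overlapped between SD and SDpcb. These fits can thus hardly tell the covariate from the group, and no conclusion is drawn from the lost calls. Of the glial markers on the deposited scale, 6 of 8 astrocyte markers and 4 of 7 oligodendrocyte markers were lower in SDpcb, with medians of −0.49 and −0.50. The mean log2 array median was 7.35 in SD and 6.62 in SDpcb, a gap wider than either of these medians. Array-median centring would thus turn both above 0. Of 6 microglial markers 0 were called by limma, with 1 higher and 1 lower at an unadjusted p under 0.05 and a median of −0.36. The summed astrocyte signal was 45390 to 77395 in SDpcb and 63519 to 84706 in SD. In tissue, fewer cells of a type and less RNA per cell cannot be told apart, and the part of these cells in the ribosomal result was not tested. In the other direction, 4 of 5 endothelial and pericyte markers were higher in SDpcb.

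**Figure D1:**
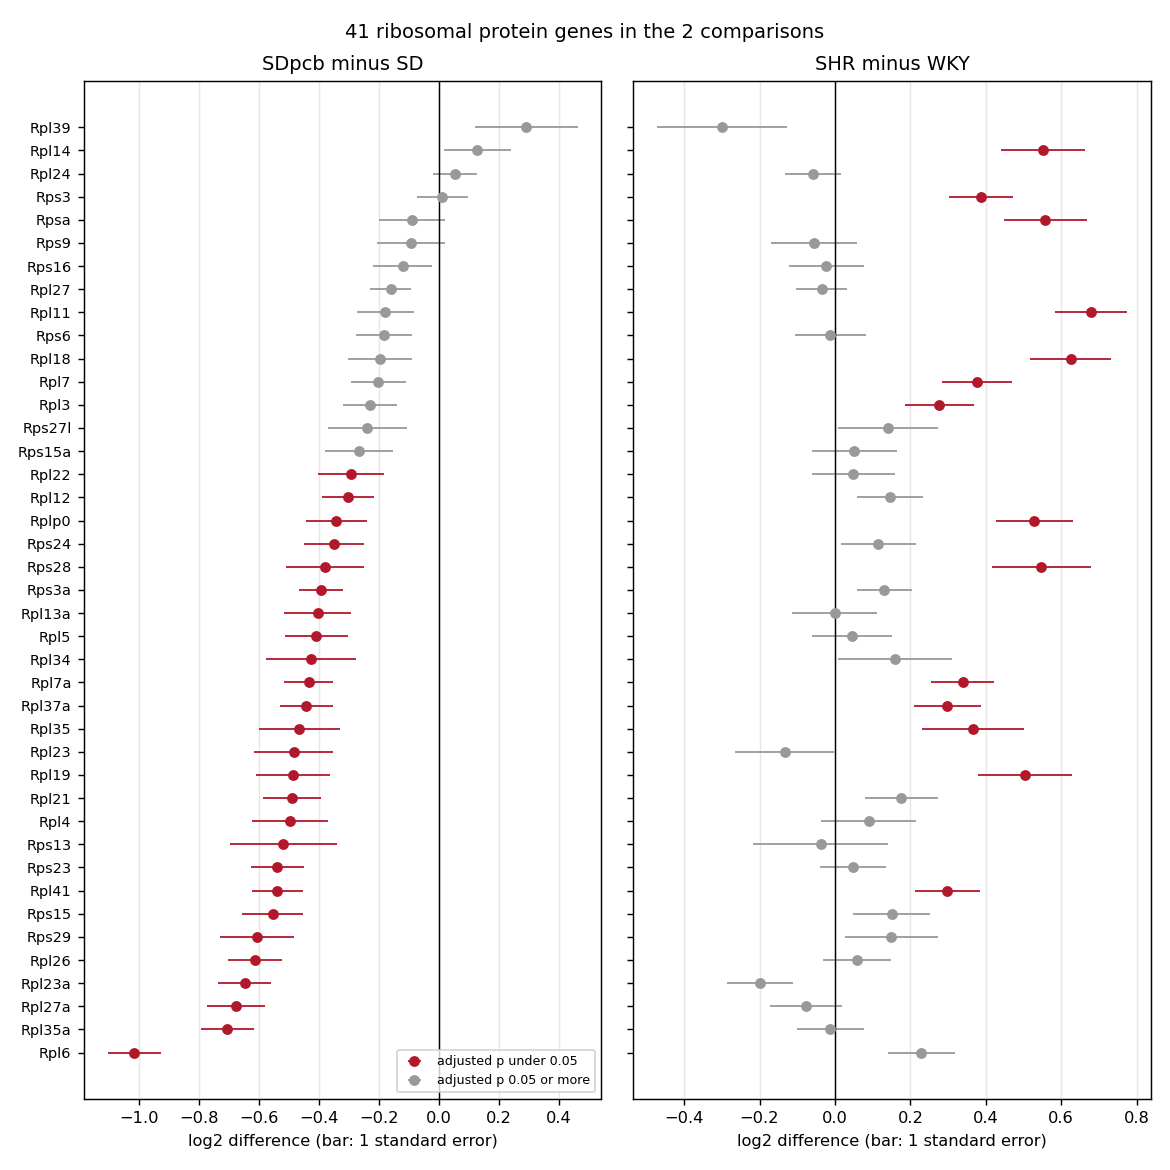
Log2 difference of each of 41 ribosomal protein genes in SDpcb minus SD and in SHR minus WKY, as deposited, with 1 standard error; red points have an adjusted p under 0.05 (limma). In SDpcb minus SD 26 points are red, all below 0 with Rpl6 lowest at −1.02, and in SHR minus WKY 14 are red, all above 0 with Rpl11 highest at 0.68; with arrays centred on their median these splits become 26 higher with 1 lower, and 1 higher with 15 lower.

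Within regions, the members divided the vermis from the other 5. The median member difference of SDpcb minus SD was −0.46 in DS, −0.47 in VS, −0.46 in PFC, −0.51 in Hipp and −0.53 in SN/VTA, with 1 to 5 of 41 members above 0. In the vermis it was 0.25, with 32 of 41 members above 0. The median of all tested probe sets in the vermis was 0.0057. The SDpcb minus SD difference of the array medians was −0.49 both in the vermis and in SN/VTA, where the member medians had opposite signs. Less the array median difference, the member median was 0.74 in the vermis, −0.04 in SN/VTA and 0.28 to 0.52 in the other 4 regions.

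After this was seen, the difference between regions was tested with a term for SDpcb minus SD in the vermis minus that in the other 5 regions, which rests on 1 vermis array a group. It called 16 of 41 members higher and 0 lower (limma, adjusted p under 0.05), where 2.15% of all tested probe sets were higher and 1.01% lower. The member median of the term was 0.66 against 0.03 for all tested probe sets, and 40 of 41 members were above 0. Quantile normalization left 7 called (2.78% of all tested probe sets were higher), cyclic loess 12 (1.69%) and array-median centring 2 (0.805%), all higher, with 35 of 41 members above 0 in the last. The same limma term for SHR minus WKY called 0 members higher and 0 lower (0.825% and 0.599% of all tested probe sets), with 10 lower at an unadjusted p under 0.05 and a median of −0.27. The SDpcb vermis array had the highest summed signal of 5 choroid plexus markers of all arrays, 21432, against an SDpcb median of 515. Its summed signal of 2 blood markers, 14873, was also the highest, against an SDpcb median of 7138. The part of these tissues in the vermis result was not tested.

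Rpl34, a large-subunit protein, showed this division most. Its SDpcb signals were 5979 in DS, 8036 in VS, 5535 in PFC, 5381 in Hipp, 6489 in SN/VTA and 12557 in the vermis. Its SD signals were 10173, 10380, 8966, 8549, 13165 and 6470 in the same order. The SDpcb array was thus lower in 5 regions and higher in the vermis, where the SD array was the lowest of its group and the SDpcb array the highest. The term was 1.66 ± 0.21 (limma, adjusted p = 0.0001134). Rpl35 followed at 1.26 ± 0.24, Rpl19 at 1.25 ± 0.19, Rps29 at 1.18 ± 0.19, Rpl23 at 1.13 ± 0.24 and Rpl4, which lines the exit tunnel, at 1.08 ± 0.20. Without the vermis arrays 31 members were called lower in SDpcb minus SD instead of 26.

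**Figure D2:**
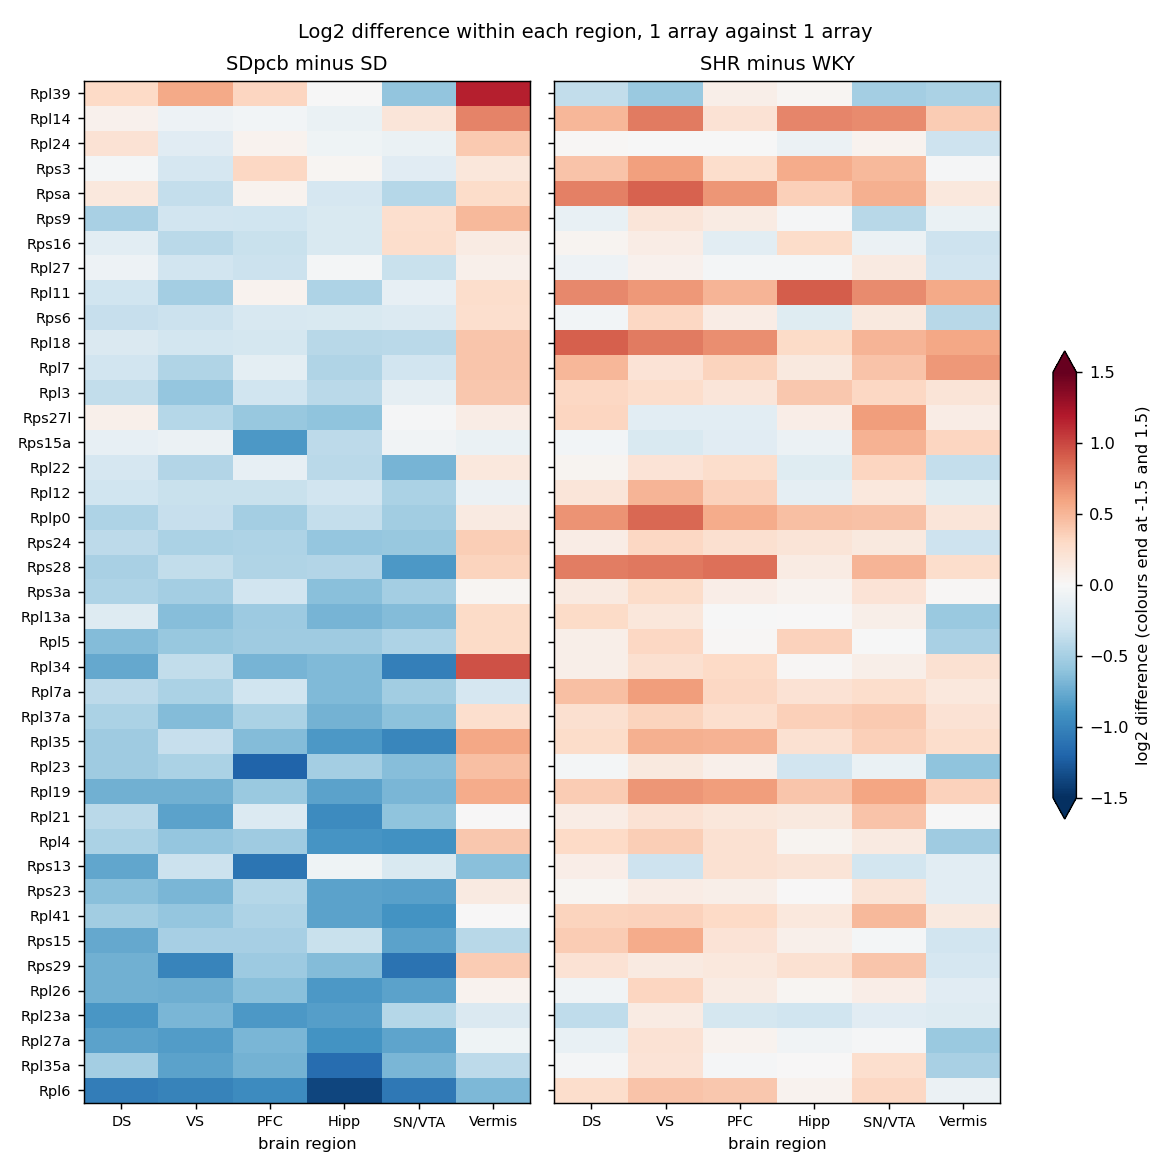
Log2 difference of 41 ribosomal protein genes within each of 6 regions, 1 array against 1 array, for SDpcb minus SD and SHR minus WKY as deposited; blue is lower and red higher, and colours end at −1.5 and 1.5. The SDpcb minus SD columns are mostly blue in 5 regions, with 1 to 5 members above 0, and mostly red in the vermis, with 32 of 41 above 0; less the array median difference the SDpcb minus SD median is above 0 in 5 of 6 regions and the SHR minus WKY median below 0 in all 6.

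SHR and WKY are the genetic model and its control strain. On the deposited scale 14 of 41 members were higher in SHR and 0 lower (limma, adjusted p under 0.05), where 16.4% of all tested probe sets were higher and 15.7% lower. The member median was 0.14 against 0.04 for all tested probe sets. Quantile normalization called 15 higher (14% of all tested probe sets) and cyclic loess 18 (14.7%), and neither called a member lower. Array-median centring gave 1 higher and 15 lower, near the shares of all tested probe sets, 3.67% higher and 37.7% lower, with a member median of −0.20 against −0.30 for all tested probe sets. Of the 14, 13 were higher in 6 of 6 regions.

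Rpl11 led. It is a large-subunit protein that, with Rpl5 and the smallest ribosomal RNA of that subunit, binds Mdm2 when ribosome assembly is disturbed. Its signal was 5441 at the lowest, 6563 at the median and 7901 at the highest in SHR, and 3543, 3970 and 4780 in WKY. The groups did not overlap, and the lowest SD and SDpcb arrays, at 5259 and 5114, also lay above every WKY array. The SHR minus WKY difference was 0.68 ± 0.10 (limma, adjusted p = 2.76e-05), and 0.34 after array-median centring. It was the member called higher under all 4 other scalings. Rpl5, its partner, stood at 0.05 ± 0.11.

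Rpl18 had signals of 2362, 3156 and 3409 in SHR and of 1618, 1900 and 2282 in WKY, without overlap, and a difference of 0.63 ± 0.11. Rplp0, the stalk protein that recruits elongation factors, had signals of 3412, 4908 and 5602 in SHR and of 2605, 3070 and 3647 in WKY. The SHR vermis array fell inside the WKY range, and the difference was 0.53 ± 0.10 (limma, adjusted p = 0.000611). Rps28, a small-subunit protein near the exit of the messenger RNA channel, had signals of 5134, 6881 and 8980 in SHR and of 3797, 4727 and 6210 in WKY. These ranges overlapped, with a difference of 0.55 ± 0.13. Rpsa differed by 0.56 ± 0.11, Rpl14 by 0.55 ± 0.11, Rpl19 by 0.50 ± 0.12 and Rpl7 by 0.38 ± 0.09. After array-median centring Rpl18, Rplp0, Rps28, Rpsa, Rpl14, Rpl19 and Rpl7 stayed above 0 and none of them was called.

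In all, Rpl11, Rpl14, Rpl18, Rpl19 and Rpl37a had 6 SHR arrays above all 6 WKY arrays, where 3.28% of all tested probe sets did so and 2.67% did the opposite. The within-region member median was 0.18 in DS, 0.27 in VS, 0.20 in PFC, 0.09 in Hipp, 0.25 in SN/VTA and −0.09 in the vermis, where 17 of 41 members were above 0. Less the array median difference it was below 0 in all 6 regions, from −0.51 in Hipp to −0.015 in PFC. Leaving out the vermis arrays gave 18 called higher, and leaving out the VS arrays 10. With the array median as a covariate limma called 0 members, with 5 higher and 5 lower at an unadjusted p under 0.05, where 2.85% of all tested probe sets were higher and 2.64% lower. With the Gapdh ratio it called 8 members higher, where 9.47% of all tested probe sets were higher. Markers of other cells moved with this comparison on the deposited scale. Of the tested markers, 5 of 6 meningeal and fibroblast and 4 of 5 endothelial ones were higher in SHR, with medians of 1.40 and 1.27. So were 4 of 6 microglial markers. The summed meningeal signal was 3789 to 17629 in SHR and 2075 to 6622 in WKY, and its part in the result was not tested.

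To see which members moved apart from the family, each array was centred on the median of the 41. In SDpcb minus SD 4 members then stood higher (35.2% of all tested probe sets) and 8 lower (7.38%), led by Rpl6 at −0.72 and, on the other side, by Rpl39 at 0.59 and Rpl14 at 0.43. In SHR minus WKY 7 stood higher (6.51%) and 9 lower (25.9%), with Rpl11 at 0.47 and Rpl18 at 0.42 above the family and Rpl39 at −0.51 and Rpl23a at −0.40 below it.

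SHR and WKY were each also compared with the same SD arrays, so these comparisons share their controls and are given side by side. In SHR minus SD 6 of 41 members were higher and 9 lower, where 18.9% of all tested probe sets were higher and 14.5% lower. In WKY minus SD 1 member was higher and 15 were lower, where 8.92% of all tested probe sets were higher and 8.63% lower. The member medians were −0.07 and −0.19, and after array-median centring 0.019 and 0.24, with 10 higher and 6 lower for SHR and 16 higher and 1 lower for WKY. Of all tested probe sets 22.1% were then higher and 9.64% lower for SHR, and 53.6% higher and 2.73% lower for WKY. Quantile normalization gave 14 higher and 1 lower for SHR minus SD, and 1 higher and 7 lower for WKY minus SD. The shares of all tested probe sets were then 18.8% and 15.6% for SHR, and 7.85% and 6.4% for WKY. Without the DS arrays WKY minus SD had 9 calls, without VS 8, and without the vermis 23. Markers of other cells moved with these comparisons on the deposited scale. In WKY minus SD 6 of 6 meningeal, 6 of 8 astrocyte, 4 of 7 oligodendrocyte and 3 of 5 endothelial markers were lower, with medians of −1.21, −0.55, −0.36 and −0.67. In SHR minus SD 5 of 8 astrocyte markers were lower and 2 higher, and 4 of 5 endothelial markers were higher and 1 lower. Of 7 oligodendrocyte markers 3 were lower and 1 higher. The summed astrocyte signal was 41190 to 76859 in WKY, 47902 to 62153 in SHR and 63519 to 84706 in SD, and the part of these cells in the result was not tested.

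Rpl35a was lower than in SD in both strains, by −0.58 ± 0.09 in SHR (limma, adjusted p = 4.1e-05) and −0.57 ± 0.09 in WKY (adjusted p = 9.34e-05). Its SD signals, 12403 to 21511, were met by SHR and WKY, at 8771 to 13483 and 8849 to 18857, only through the vermis. Rpl11 was lower in WKY, at −0.69 ± 0.10, against −0.006 in SHR. The members higher in SHR than SD in all 6 regions were Rps28 at 0.63 ± 0.13, Rpl18 at 0.49 ± 0.11, Rpl35 at 0.47 ± 0.14, Rps15 at 0.39 ± 0.10 and Rpsa at 0.37 ± 0.11, each called under the 4 other scalings too. Those called lower in SHR in all 6 regions were led by Rpl35a, then Rpl27a at −0.44 and Rps23, a decoding centre protein, at −0.43. After them came Rpl5 at −0.39, Rpl23a at −0.37, Rps3a at −0.31, Rpl26 at −0.27 and Rpl27 at −0.20. Under quantile normalization Rpl27a, Rps23, Rpl26 and Rpl27 turned to above 0. In WKY, Rpl37a stood at −0.52, Rpl3, which lies near the peptidyl transferase centre, at −0.48, Rps23 at −0.48, Rpl7a at −0.45, Rps3a at −0.44 and Rpl21 at −0.35, and after array-median centring they lay between −0.09 and 0.077.

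Rpl39 was the only member higher in WKY than in SD. Its signal was 567.9, 686 and 1058 in WKY and 322, 436 and 558 in SD, so the groups did not overlap. The difference was 0.73 ± 0.17 (limma, adjusted p = 0.00455), higher in 6 of 6 regions and called under the 4 other scalings.

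The contrast of the 2 models, (SHR minus WKY) minus (SDpcb minus SD), tests directly whether the ribosomal differences were the same. It called 30 of 41 members higher and 0 lower, where 22% of all tested probe sets were higher and 18.4% lower, and the member median was 0.58. Array-median centring gave 0 higher and 29 lower, near the shares of all tested probe sets, 2.24% higher and 67.3% lower, with a member median of −0.48 against −0.98 for all tested probe sets. Within regions the median was 0.62 to 0.86 in 5 regions and −0.21 in the vermis. Rpl6 had the largest value, 1.25 ± 0.13 (limma, adjusted p = 5.02e-07), and was still above 0 after array-median centring, at 0.18. Rplp0 stood at 0.87 ± 0.14, Rpl11 at 0.86 ± 0.14, Rpl41, the smallest ribosomal protein, at 0.84 ± 0.12, Rpl18 at 0.82 ± 0.15, Rpl7a at 0.77 ± 0.12, Rps15 at 0.70 ± 0.14 and Rpl7 at 0.58 ± 0.13. After array-median centring these 7 lay below 0, from −0.19 for Rplp0 to −0.48 for Rpl7.

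**Figure D3:**
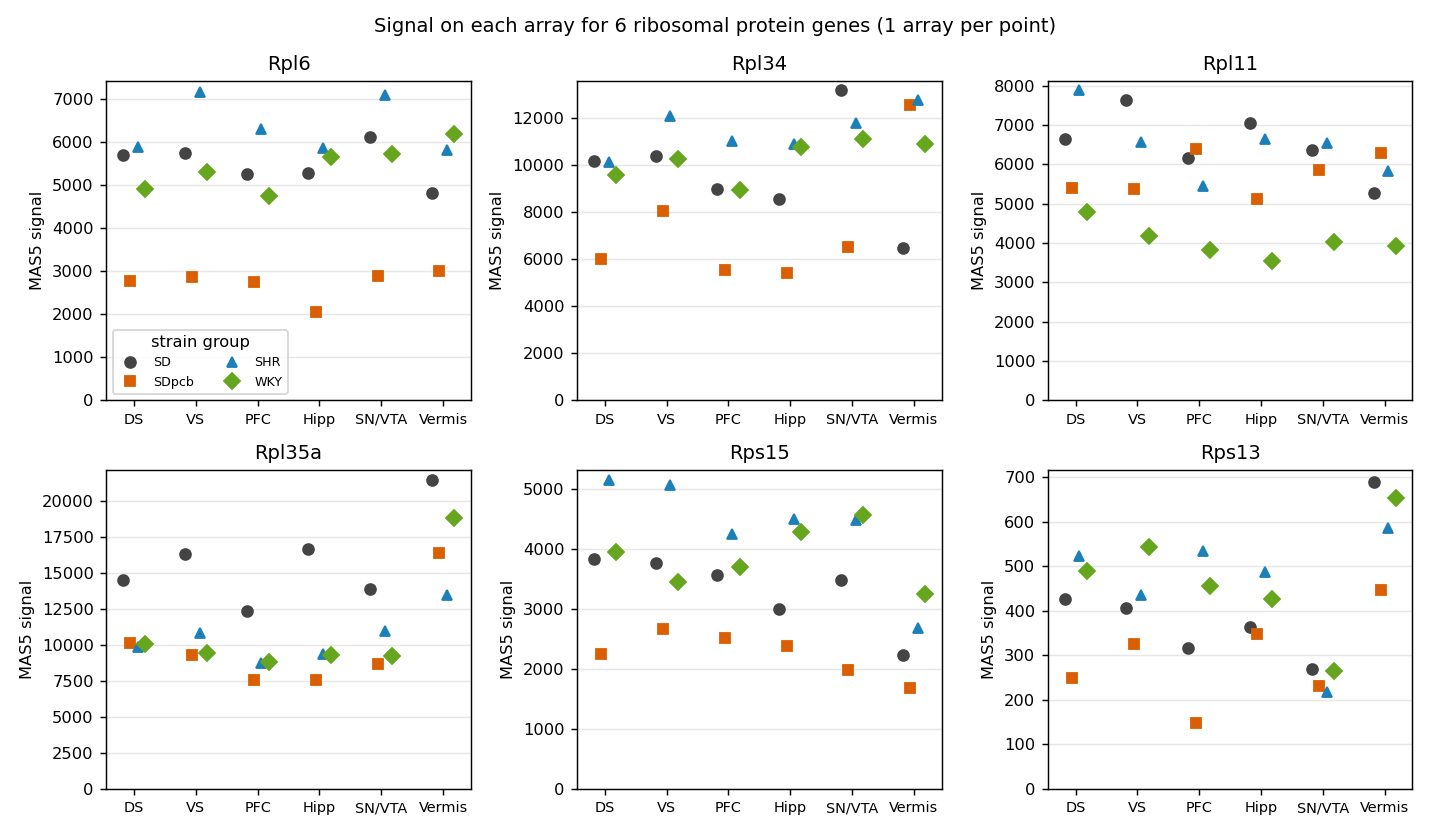
MAS5 signal on each array (linear axis from 0, 1 array per point) for Rpl6, Rpl34, Rpl11, Rpl35a, Rps15 and Rps13, by region and strain group. Rpl6 lies at 2043 to 3016 in SDpcb and at 4761 or above elsewhere, Rpl11 lies at 3543 to 4780 in WKY, and Rpl35a is highest in the vermis of every group.

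On the deposited scale the cerebellar vermis held the most calls of the 6 regions, among the members and also among all tested probe sets. The ranking is thus not particular to the members. With array-median centring SN/VTA had 16 against 15 in the vermis, and with array weights PFC and the vermis had 19 each. Against the mean of the other 5 regions, 17 of 41 members were higher in the vermis and 5 lower, where 22.6% of all tested probe sets were higher and 26.3% lower. The member median was 0.19 against −0.0050 for all tested probe sets, and it turned to −0.13, with 1 higher and 14 lower, after array-median centring, where 9.89% of all tested probe sets were higher and 44.4% lower. Quantile normalization gave 8 higher and 6 lower, where 22.2% of all tested probe sets were higher and 27.6% lower. Members moved apart: relative to the family median 9 stood higher (13.5% of all tested probe sets) and 10 lower (34.8%).

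Rpl35a was highest, with vermis signals of 21511 in SD, 16433 in SDpcb, 13483 in SHR and 18857 in WKY. In each group this was the highest of its 6 arrays. The difference was 0.73 ± 0.08 (limma, adjusted p = 1.43e-07), and 0.41 after array-median centring, called under all scalings. Rps13 had vermis signals of 690 in SD, 447 in SDpcb, 586 in SHR and 653 in WKY, again the highest of each group, with a difference of 0.73 ± 0.17 (limma, adjusted p = 0.00112). Rpl39 had 495, 1115, 760 and 1058 in SD, SDpcb, SHR and WKY, with a difference of 0.67 ± 0.16. It was highest in the vermis in 3 groups, and in SD the Hipp and SN/VTA arrays were higher, at 558 and 525.

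Other members were low in the same tissue. Rps15 had vermis signals of 2236 in SD, 1675 in SDpcb, 2672 in SHR and 3253 in WKY, the lowest of each group, with a difference of −0.56 ± 0.10 (limma, adjusted p = 4.52e-05). Rpl22, whose paralog Rpl22l1 can take its place in the ribosome, had 2269, 2529, 2004 and 2563 in SD, SDpcb, SHR and WKY. These were the lowest in SD and SHR, while in SDpcb the SN/VTA and Hipp arrays were lower, at 2286 and 2504, and in WKY the PFC array was lower, at 2473. The difference was −0.49 ± 0.10 (limma, adjusted p = 0.000495). Rpl41 followed at −0.30 ± 0.08, and Rpsa and Rplp0 were also called lower, at −0.29 ± 0.10 and −0.25 ± 0.10. Rps15, Rpl22, Rpl41 and Rpsa were called lower under all scalings.

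**Figure D4:**
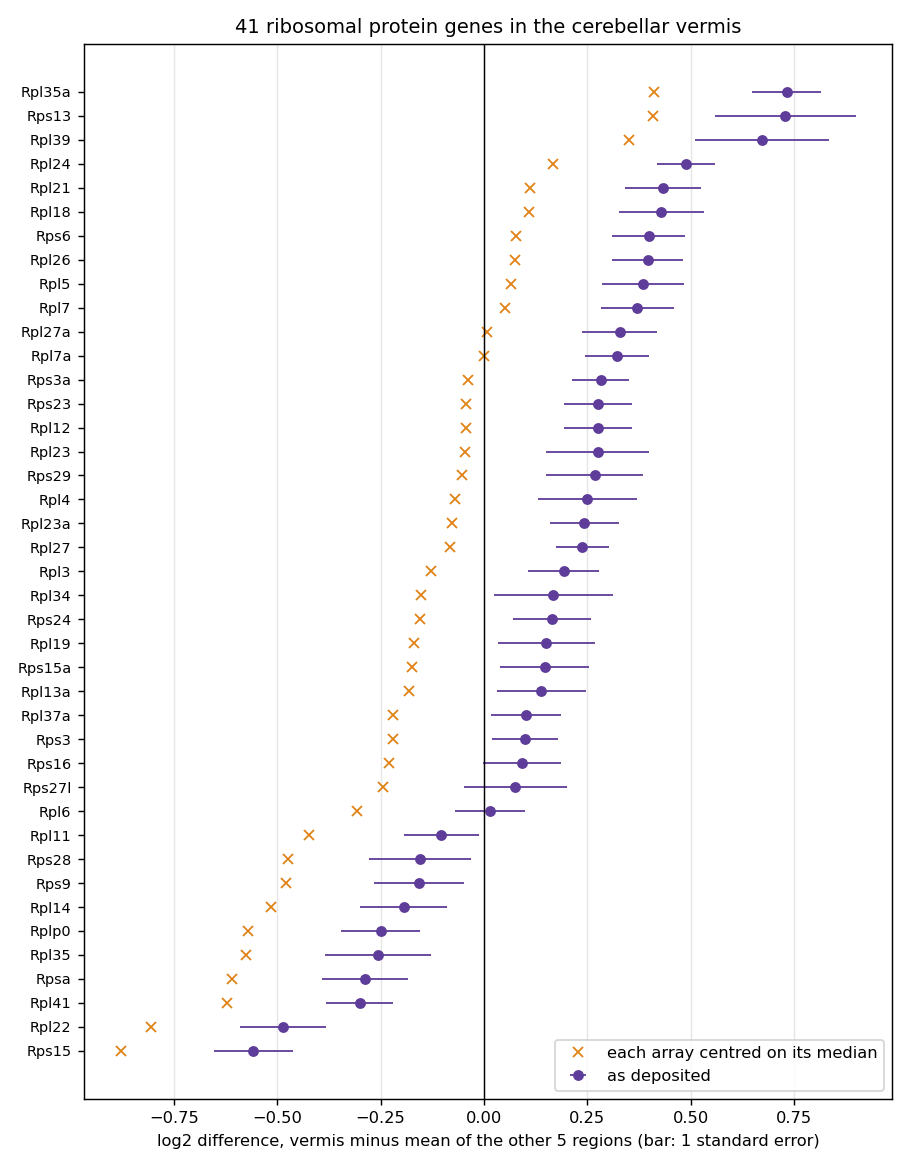
Log2 difference of 41 ribosomal protein genes in the vermis minus the mean of the other 5 regions, as deposited (circles, with 1 standard error) and with each array centred on its median (crosses). As deposited 17 members were called higher and 5 lower, and the centred values lie to the left, with 1 called higher (Rpl35a, 0.41) and 14 lower.

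In PFC 0 members were higher and 6 lower, where 11.7% of all tested probe sets were higher and 9.85% lower. They were led by Rps27l, a p53-induced paralog of Rps27, at −0.47 ± 0.13, Rps15a at −0.36 ± 0.11 and Rpl35a at −0.35 ± 0.08. Array weights raised the count to 19 lower (14.2% of all tested probe sets) and cyclic loess to 11 (10.6%). After array-median centring limma called 0, with 1 higher and 2 lower at an unadjusted p under 0.05, where 18.1% of all tested probe sets were higher and 4.27% lower. Without the SHR arrays 1 was called. In SN/VTA 4 were higher and 1 lower, where 16.9% of all tested probe sets were higher and 16.5% lower. Rps13 was the low one, with SN/VTA signals of 270 in SD, 230 in SDpcb, 218 in SHR and 264 in WKY. These were the lowest of the 6 arrays in SD, SHR and WKY, and in SDpcb the PFC array was lower, at 147. The difference was −0.78 ± 0.17 (limma, adjusted p = 0.00108), called under all scalings. Rps27l was higher at 0.41 ± 0.13, Rpl14 at 0.32 ± 0.11, Rps28 at 0.32 ± 0.12 and Rpsa at 0.30 ± 0.10. Array-median centring gave 15 higher and 1 lower in SN/VTA, where 28.2% of all tested probe sets were higher and 9.32% lower, and without the SHR arrays 1 call was left.

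In DS 1 member was higher, Rpl22 at 0.31 ± 0.10, and 0 lower, where 10% of all tested probe sets were higher and 9.47% lower. In Hipp 0 were higher and 1 lower, Rpl24, a protein that bridges the subunits, at −0.27 ± 0.07, where 6.44% of all tested probe sets were higher and 3.9% lower. In VS 0 were higher and 0 lower by limma, with 1 higher at an unadjusted p under 0.05, where 5.15% of all tested probe sets were higher and 2.78% lower. The DS call was lost when any 1 strain group was left out, and the Hipp call when SDpcb, SHR or WKY was.

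Members tended to rise and fall together from array to array. Over the 24 arrays the median Pearson correlation of a pair of members was 0.43, with 93.5% of 820 pairs above 0, against 0.012 and 51.2% for pairs of the brighter 7761 tested probe sets. After strain group and region were taken out it was 0.54 against 0.0073. This is a description over arrays that share a scaling, with no test. The members are brighter than most of the 7761, since 36 of the 45 genes lie among the brightest 5% of probe sets. No set matched in brightness was compared. The members with the narrowest range over the 24 arrays after centring on the family were Rpl3 (0.50 log2), Rps24 (0.51), Rpl27 (0.53), Rpl21 (0.54) and Rpl26 (0.55). Those with the widest were Rps13 (1.80), Rps15 (1.77), Rpl39 (1.77), Rpl35 (1.41) and Rpl6 (1.36), and Rps13 and Rpl39 are also the dimmest tested members apart from Rps27l.

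Second probe sets were present for 5 members. All 3 Rpsa probe sets were higher in SHR than WKY, at 0.56, 0.55 and 0.80, and so was the second Rpl7 probe set at 0.44. In the contrast of the 2 models the second Rpl7 probe set stood at 0.36 and was not called by limma. In SHR minus WKY the second Rpl14 probe set stood at 0.59 and was not called by limma. In SN/VTA the other Rpsa probe sets stood at 0.13 and 0.23 and the second Rpl14 probe set at 0.006, and none was called. In the vermis the second Rpsa probe set was called lower at −0.28, and the dimmest stood at 0.02 and was not called. In SHR minus SD the dimmest was called higher at 0.58, and the second stood at 0.25 and was not called. The second Rpl14 probe set, much dimmer than the first, was lower in SDpcb at −0.78 ± 0.28 (limma, adjusted p = 0.03766), where the first stood at 0.13. The second Rpl3 probe set stood at 0.44 ± 0.51 in WKY minus SD, against −0.48 for the first. Near-identical ribosomal protein pseudogenes are common in the rat genome, and probes that also read them cannot be told from those that do not.

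Ribosomes are served by factors that start and lengthen the protein chain. Of 7 elongation factor genes, 2 were higher in SHR than WKY, Eef1d at 0.70 ± 0.12 and Eef2 at 0.58 ± 0.12, and 1 was lower in SDpcb than SD, Eef1a1 at −0.77 ± 0.10. Of 25 initiation factor genes, 5 were higher and 7 lower in SHR minus WKY, with Eif3d at 0.84, Eif3a at −0.61 and Eif3c at −0.84, and 6 were higher and 3 lower in SDpcb minus SD, with Eif4b at 0.73, Eif2s3 at 0.60 and Eif3f at −0.48. Of 7 other TOP messenger RNAs tested, 2 were higher in SHR minus WKY, Vim at 0.87 and Eef2, while 3 were lower in SDpcb minus SD, Eef1a1, Hnrnpa1 at −0.36 and Rack1 at −0.26, and 1 was higher, Nap1l1 at 0.19. Eef1a1 and Eef2 stand in both lists. In the vermis 5 of the 7 were higher and 2 lower, with Hnrnpa1 and Naca both at 0.51 and Nap1l1 at −0.31.

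Ribosomes are assembled by biogenesis factors on RNA made by RNA polymerase I, while mitochondria have ribosomes of their own. Of 27 tested ribosome biogenesis genes, 6 were higher and 1 lower in SHR minus WKY (Bop1 0.76, Nhp2 0.48, Emg1 −0.98), and 2 were higher and 3 lower in SDpcb minus SD (Dkc1 1.41, Emg1 −0.68, Nob1 −0.58). Of 10 genes of RNA polymerase I and its factors, 3 were higher in SHR minus WKY, with Polr2l at 0.82, Polr1d at 0.37 and Polr1c at 0.41, and 1 was lower in SDpcb minus SD, Polr2l at −0.55. Of 13 genes of the mTORC1 pathway, 1 was higher and 4 lower in SHR minus WKY (Tsc2 0.72, Rheb −0.48, Rps6kb1 −0.60), and 3 were higher and 3 lower in SDpcb minus SD (Rps6kb1 0.55, Rheb 0.32, Tsc1 −0.80). Of 73 mitochondrial ribosomal protein genes, 26 were higher and 1 lower in SHR minus WKY with a median of 0.27, and by smallest p they were headed by Mrps6 at 1.69, Mrpl38 at 1.40 and Mrpl18 at 0.56. In SDpcb minus SD 6 were higher and 6 lower with a median of 0.03, and by smallest p they were headed by Mrps9 at 1.03, Mrpl42 at −0.68 and Mrpl51 at −0.30. The counts were read against the same shares of all tested probe sets as above, and the lists were not tested against each other. All list values, from the elongation factors on, are on the deposited scale only.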

How the data were processed

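Total RNA from 6 brain regions of 4 rat groups was hybridised to Rat RAE 230 2.0 arrays, 1 array each (24 in all). Per the labels' protocols, RNA was purified with RNeasy (Qiagen) and labelled with biotin by Ovation (Nugen). Per the submitters' processing notes, MAS5 made the deposited values, which are a linear intensity (signal) per probe set; its version and scaling are not given in the sources used here. Gene names came from the platform annotation. From the deposited intensities, log2(signal + 1) was computed without further scaling. Probe sets below the 50th percentile of mean log2 signal and 57 control probe sets were left out. limma 3.58.1 in R 4.3.3 fitted strain group and region to all 24 arrays (15 residual degrees of freedom; 12 with the vermis term), with a trended prior. Benjamini-Hochberg adjustment ran over all 15521 tested probe sets, and calls are adjusted p under 0.05. The test was run on simulated data with known changes. The members and lists were chosen with earlier results of these data known. Named genes are the up to 8 largest rises and falls with 1 sign in all 6 regions per strain comparison, and the 3 highest and lowest per region. Genes of the vermis term, Rpl34 among them, were chosen after their values were seen. Where a gene is named on several-symbol probe sets, or excluded as a copy (such as Rpl7l1), it was left out. Alternatives were 4 scalings, pseudocount 16, 2 filters, array weights, no trend, 2 covariates, 12-array fits, second probe sets, no paralogs, and each region or group left out. The number of arrays limits the precision.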

Additional observations from a re-analysis of the deposited data

Results flagged for a closer look

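Single arrays that stood far from the others of their group or region were searched for in 120 sets of values. These were the sets of the family median and of 11 members, and 8 were found. Chance alone flags about 1 in 20 sets, so a number near 8 can come from chance, and each flag below is a description only. The SD VS array had the highest family median of its group, 13.138 on the log2 scale. The SDpcb Hipp array had the lowest Rpl6 signal, 2043, both among SDpcb arrays and among the Hipp arrays. Rpl35a was far above the other WKY arrays in the WKY vermis, at 18857, and far above the other DS arrays in SD, at 14526. Among SHR arrays, Rps15 was far below the others in the vermis, at 2672, and Rps13 in SN/VTA, at 218. Rpl34 was lowest among DS arrays in SDpcb, at 5979.

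The SHR minus WKY and SDpcb minus SD differences themselves differed, by the limma contrast of the 2 models, in 30 members. All 30 were higher, where 22% of all tested probe sets were higher and 18.4% lower. The named ones were Rpl6 at 1.25, Rplp0 at 0.87, Rpl11 at 0.86, Rpl41 at 0.84, Rpl18 at 0.82, Rpl7a at 0.77, Rps15 at 0.70 and Rpl7 at 0.58. After array-median centring 0 members were called higher and 29 lower, where 2.24% of all tested probe sets were higher and 67.3% lower. Only Rpl6 of the 8 named members then stayed above 0. The SDpcb minus SD difference in the vermis differed from that in the other 5 regions in 16 members, all higher in the vermis, by a term added after the pattern was seen.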

How the results depend on the processing

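Counts below are members called of 41. A count is said to be reversed where the direction with more calls changed, whether or not any named member changed sign. The share of all tested probe sets called also changed with the setting, so a count alone says little about the members. In SDpcb minus SD 16.9% were lower as deposited and 3.45% after array-median centring, and 14.7% and 70.8% were higher. Array-median centring reversed SHR minus WKY to 16 (1 higher, 15 lower), SDpcb minus SD to 27 (26 higher, 1 lower), SHR minus SD to 16, WKY minus SD to 17, the contrast of the 2 models to 29 and the vermis to 15; it left 0 in DS, PFC and Hipp, 16 in SN/VTA and 2 in the vermis term. Among named members it gave, for SDpcb minus SD, Rpl35a 0.018, Rpl27a 0.046, Rpl23a 0.075, Rps15 0.17, Rps13 0.21, Rpl7a 0.29 and Rpl12 0.42, for WKY minus SD Rpl21 0.077, and for the contrast Rplp0 −0.19, Rpl11 −0.20, Rpl41 −0.22, Rpl18 −0.24, Rpl7a −0.29, Rps15 −0.36 and Rpl7 −0.48. Centring on the family median gave 16 for SHR minus WKY (reversed), 12 for SDpcb minus SD, 12 for the contrast, 0 in PFC and Hipp, and 19 in the vermis (reversed); this centring balances higher against lower members by construction, and 0 of 61 named values changed sign. Quantile normalization reversed SHR minus SD to 15 and gave 8 for WKY minus SD, 8 in SN/VTA, 14 in the vermis and 7 in the vermis term; for SHR minus SD it turned Rpl27a to 0.012, Rps23 to 0.022, Rpl26 to 0.16 and Rpl27 to 0.088, and for WKY minus SD Rps23 to 0.019. Cyclic loess reversed SHR minus SD to 14, with Rpl26 at 0.021 and Rpl27 at 0.040, and gave 10 for WKY minus SD, 11 in PFC and 3 in Hipp. With the array median as a covariate 0 were called for SHR minus WKY, SDpcb minus SD, WKY minus SD, the contrast (Rpl11 −0.073) and PFC, 13 for SHR minus SD (reversed), 3 in SN/VTA and 5 in the vermis (reversed). With the Gapdh ratio the counts were 8 for SHR minus WKY, 1 for SDpcb minus SD, 6 for SHR minus SD (reversed), 19 for the contrast, 0 in DS and 3 in SN/VTA. Array weights gave 22 for SHR minus WKY, 3 in DS, 19 in PFC and 3 in Hipp. DS had 0 with no filter and with no trend, and SN/VTA 3 with no trend and with second probe sets, where Rpl3 in WKY minus SD was 0.44. Leaving out 1 region gave 8 to 23 for WKY minus SD; leaving out 1 strain group gave 0 to 0 in DS, 1 to 6 in PFC, 0 to 1 in Hipp and 1 to 6 in SN/VTA (reversed without SD or SHR). The cause of these changes was not tested. With a pseudocount of 16, 61 of 61 named values stayed called in their direction. Region, a term in every fit, pairs the arrays between groups; over the 12 arrays of each paired comparison alone 14 were called for SHR minus WKY and 19 for SDpcb minus SD, and against SD 22 for SHR and 15 for WKY.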

Other observations

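A control probe set for the smallest ribosomal RNA of the large subunit was also read on each array. Its signal was highest in the vermis of every group, at 1062 in SD, 456 in SDpcb, 546 in SHR and 630 in WKY. Over the other 5 regions it ran from 341 to 610 in SD, from 86.4 to 165 in SDpcb, from 58.3 to 193 in SHR and from 136 to 226 in WKY.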
